A study of Mus musculus with 15 samples.

Results

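The dual-specificity phosphatases of mitogen-activated protein kinases (MAPK) were followed by 10 genes, *Dusp1*, *Dusp2*, *Dusp4*, *Dusp5*, *Dusp6*, *Dusp7*, *Dusp8*, *Dusp10*, *Dusp14* and *Dusp16*, of 55266 genes with a matched transcript. They were chosen by name, and the counts of each gene's transcripts were summed in each of 15 RNA-seq libraries of NIH3T3, an established line of mouse fibroblasts. The cells carried a doxycycline-inducible transgene in a stable line, either histone H2A fused to TerminaTOR, an inhibitor of mTORC1 in the nucleus, or H2A fused to mCherry as the control. All groups carried one of these transgenes, and all cells were starved. The sources used here do not give doses or times, or say whether each line is a single clone. The 5 groups of 3 libraries were H2A-TerminaTOR cells with cycloheximide and PDGF, H2A-mCherry cells with cycloheximide and PDGF, H2A-mCherry cells with rapamycin and PDGF, H2A-mCherry cells with PDGF, and H2A-mCherry cells without PDGF. PDGF is a growth factor for fibroblasts, rapamycin inhibits mTORC1, and cycloheximide blocks translation. The labels name no separate cultures within a group, so p-values measure the spread between these libraries, which may be technical.

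MAPKs are switched on when an upstream kinase phosphorylates a threonine and a tyrosine in their activation loop, and dual-specificity phosphatases remove both phosphates. The typical members bind their MAPK through an amino-terminal domain and differ in where they sit and in which of the kinases ERK, JNK and p38 they prefer. Several are immediate early genes of growth factor signalling in fibroblasts, so that the pathway raises its own inhibitors.

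Total counts per library ran from 3466202 to 6777780. Of 8 fibroblast markers, 7 had a mean of at least 10 reads per library over all 15 libraries. The summed level of all 8 was 8615 to 9145 CPM (reads relative to the scaled total of a library) in TerminaTOR cells. In mCherry cells it was 7567 to 7914 CPM with cycloheximide and PDGF and 4613 to 4996 CPM with rapamycin and PDGF. It was 7299 to 7626 CPM with PDGF and 8417 to 8496 CPM without PDGF. The 6 macrophage markers summed to at most 26.1 CPM, with *Adgre1* at 0, the 4 epithelial markers to at most 3.88 CPM, with *Epcam* and *Krt18* at 0, and the 3 endothelial markers to at most 4.39 CPM. The lower fibroblast markers with rapamycin moved with the rapamycin results below, and their part in those was not tested.

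The deposited counts are per transcript, and bases that several transcripts share gave few or no reads, so a gene's sum rests on the bases that belong to one of its transcripts alone. *Dusp4* had 67666 reads over all libraries, *Dusp5* 36544, *Dusp10* 25457, *Dusp8* 22120 and *Dusp7* 2631, in each case at least 99.5% on protein-coding transcripts. *Dusp1* had 628 reads, of which 90.6% lay on 2 transcripts annotated as intron-retaining and 9.39% on coding transcripts, which have 239 specific bases. *Dusp6* had 118 reads, all on 2 processed transcripts without a coding annotation, and its coding transcripts have 1 specific base between them. *Dusp16* had 267 reads, 77.9% of them coding, and *Dusp2* and *Dusp14* had 33 and 21. The values of *Dusp1* and *Dusp6* below are therefore those of such transcripts, and their coding messenger RNA was hardly counted. After the filter on low counts 8 members were tested, and *Dusp2* and *Dusp14* were not.

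**Figure D1:**
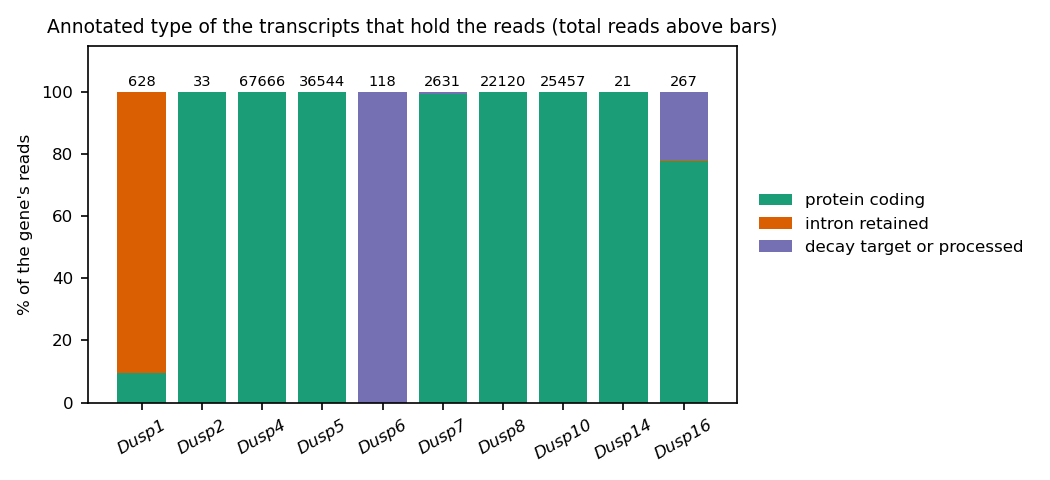
Share of each gene's reads (% of the gene's reads over 15 libraries) by the annotated type of the transcript, with the total reads above each bar; "decay target or processed" joins nonsense-mediated decay targets and processed transcripts. *Dusp1* stands at 90.6% intron retained and *Dusp6* at 100% processed, and the other 8 genes lie mostly or wholly on protein-coding transcripts.

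The promoters are shown of the members that were tested for a change in expression and held one of the motifs searched, and of *Dusp7*, which moved the other way with PDGF. RefSeq promoters on GRCm38.p6, 250 bases before to 50 after the start, were matched for 9 of 10 members, with no entry for *Dusp4*. Capitals mark CArG boxes in *Dusp5*, cyclic AMP response elements and an E-box in *Dusp1*, and cyclic AMP response elements in *Dusp8*, while *Dusp7* held none of the motifs searched.
Dusp5: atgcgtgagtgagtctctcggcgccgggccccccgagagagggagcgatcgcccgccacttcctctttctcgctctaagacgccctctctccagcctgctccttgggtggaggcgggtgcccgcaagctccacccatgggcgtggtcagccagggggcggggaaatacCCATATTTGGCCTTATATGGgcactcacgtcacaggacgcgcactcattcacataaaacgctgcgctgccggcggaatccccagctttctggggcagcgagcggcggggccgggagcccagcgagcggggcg
Dusp1: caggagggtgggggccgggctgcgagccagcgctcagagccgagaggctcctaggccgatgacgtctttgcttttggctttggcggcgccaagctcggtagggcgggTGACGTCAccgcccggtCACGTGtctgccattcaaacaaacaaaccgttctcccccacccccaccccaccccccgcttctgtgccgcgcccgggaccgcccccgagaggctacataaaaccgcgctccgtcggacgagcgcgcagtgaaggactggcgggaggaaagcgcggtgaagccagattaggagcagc
Dusp8: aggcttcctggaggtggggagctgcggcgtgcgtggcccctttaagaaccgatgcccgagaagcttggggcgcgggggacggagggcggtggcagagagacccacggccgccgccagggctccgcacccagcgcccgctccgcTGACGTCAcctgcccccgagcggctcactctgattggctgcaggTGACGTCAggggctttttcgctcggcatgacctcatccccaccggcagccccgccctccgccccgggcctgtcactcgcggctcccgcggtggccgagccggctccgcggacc
Dusp7: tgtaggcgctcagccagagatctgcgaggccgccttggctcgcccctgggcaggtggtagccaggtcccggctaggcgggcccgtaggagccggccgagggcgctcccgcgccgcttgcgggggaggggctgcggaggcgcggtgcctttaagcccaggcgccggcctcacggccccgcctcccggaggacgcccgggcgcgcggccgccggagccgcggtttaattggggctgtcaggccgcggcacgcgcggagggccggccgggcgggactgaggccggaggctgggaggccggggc
The windows are chr19:53528895-53529194 (plus strand) for *Dusp5*, chr17:26508423-26508722 (minus strand) for *Dusp1*, chr7:142095235-142095534 (minus strand) for *Dusp8* and chr9:106368382-106368681 (plus strand) for *Dusp7*, each printed 5′ to 3′ along the gene. In *Dusp5* a pair of CArG boxes, CCATATTTGG at -82 and CCTTATATGG at -72 from the start, lay end to end, and 1.63% of all 32851 promoters held such a box. The cyclic AMP response element TGACGTCA stood at -143 in *Dusp1* and at -107 and -63 in *Dusp8*, and 1.79% of promoters held it. The E-box CACGTG was found in *Dusp1* at -126 and in *Dusp2* at -109 (7.15% of promoters), and the ETS core CCGGAA in *Dusp14* at -65 (14.9%). None of the 9 windows held the AP-1 site TGAGTCA (5.2% of promoters) or the TATA box TATAAA (13.6%). For *Dusp6*, *Dusp14* and *Dusp16* the RefSeq start lay at -2410, -1277 and -1294 bases from that of the transcript with most of their reads. Matches and absences in the windows of these genes may therefore not describe the promoter of the transcript counted. Both strands were searched and no matches overlapped. A match describes letters in this window and is not evidence of binding, and the absence of one says nothing about the factor.

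PDGF changed most of the members that could be tested. With PDGF, 6 of 8 members were higher than without PDGF and 1 was lower, where 20.1% of the 10603 genes tested were higher and 16.9% lower. The members' median log2 change was 2.58, against -0.01 over all genes. *Dusp5* and *Dusp4* rose 12.1-fold and 11.3-fold, *Dusp8* 7.05-fold, *Dusp6* 6.67-fold, *Dusp16* 5.34-fold and *Dusp10* 1.69-fold, and *Dusp7* was 3.39-fold lower. *Dusp6* and *Dusp16* had only 7 and 9 reads in the group without PDGF, and passed the filter through libraries with PDGF alone. That they were tested, and so count among the members that rose, is therefore tied to their higher level with PDGF. Calls are at an adjusted p under 0.05 by edgeR's quasi-likelihood F test, adjusted over all genes tested. Scaling by library totals alone gave a median of -0.26 over all genes and cut the share of called genes that were higher to 30.7%, against 54.3% with the TMM scaling used here, and each member kept its direction and its call.

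**Figure D2:**
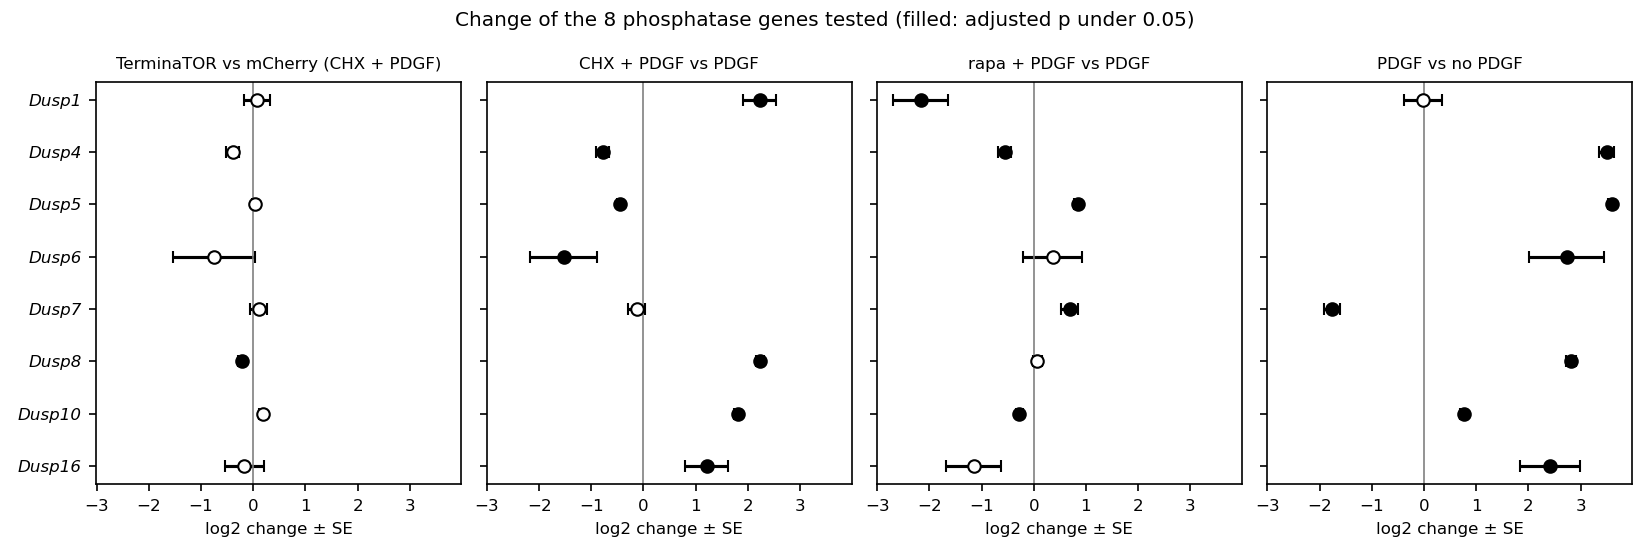
Log2 change ± SE of the 8 members tested in the 4 main comparisons (CHX, cycloheximide; rapa, rapamycin), filled where the adjusted p was under 0.05. With PDGF 6 members lie to the right of 0 and *Dusp7* to the left, and between TerminaTOR and mCherry cells the changes of *Dusp4*, *Dusp5*, *Dusp7*, *Dusp8* and *Dusp10* lie within -0.39 and 0.18.

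Among the inducible nuclear phosphatases, *Dusp4* and *Dusp5* stood far above their starved level in every group with PDGF. *Dusp4* (chromosome 8, 34807297 to 34819894, plus strand, GRCm38) encodes a nuclear phosphatase of ERK, JNK and p38. Its level per library was 798, 848 and 873 CPM in TerminaTOR cells and 967, 1225 and 1114 CPM in mCherry cells with cycloheximide and PDGF. It was 1405, 1160 and 1294 CPM with rapamycin and PDGF, 1859, 2000 and 1810 CPM with PDGF, and 152, 205 and 145 CPM without PDGF. Every library with PDGF lay above every library without it, TerminaTOR libraries lay below all others with PDGF, and among the rest the mCherry cycloheximide and the rapamycin libraries overlapped. With PDGF the log2 change over no PDGF was 3.50 ± 0.14 SE (edgeR adjusted p = 8.47e-10). Against PDGF alone it fell by 0.55 ± 0.12 with rapamycin (edgeR adjusted p = 0.00434) and by 0.78 ± 0.12 with cycloheximide (edgeR adjusted p = 0.000299). In bulk RNA, fewer cells with the transcript and less of it per cell cannot be told apart.

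*Dusp5* (chromosome 19, 53529109 to 53542431, plus strand) encodes a nuclear phosphatase selective for ERK, and its promoter carries the CArG boxes above. It had 486, 513 and 509 CPM in TerminaTOR cells, 442, 506 and 519 CPM in mCherry cells with cycloheximide and PDGF, 1157, 1207 and 1221 CPM with rapamycin and PDGF, 682, 636 and 683 CPM with PDGF, and 52.3, 59.3 and 54 CPM without PDGF. The rapamycin libraries were the highest of all 15, and the groups with cycloheximide overlapped only each other. The log2 change was 3.60 ± 0.07 with PDGF (edgeR adjusted p = 4.07e-52), and over PDGF alone 0.84 ± 0.06 with rapamycin (edgeR adjusted p = 6.26e-20) and -0.45 ± 0.06 with cycloheximide (edgeR adjusted p = 2.76e-09). The antisense gene AC137853.2 overlaps *Dusp5* and had 5, 8, 12, 17 and 7 reads in the same order of groups. The sources used here do not say whether strand was used in counting, so the reads of antisense partners cannot be told apart.

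*Dusp4* and *Dusp5* thus moved in opposite directions with rapamycin while both were far above the level without PDGF. Over no PDGF, *Dusp5* was 21.7-fold and *Dusp4* 7.70-fold higher with rapamycin and PDGF (edgeR adjusted p = 5.66e-58 and 2.06e-09), and 8.87-fold and 6.59-fold higher with cycloheximide and PDGF (edgeR adjusted p = 3.46e-49 and 5.95e-09). These comparisons share the libraries without PDGF.

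**Figure D3:**
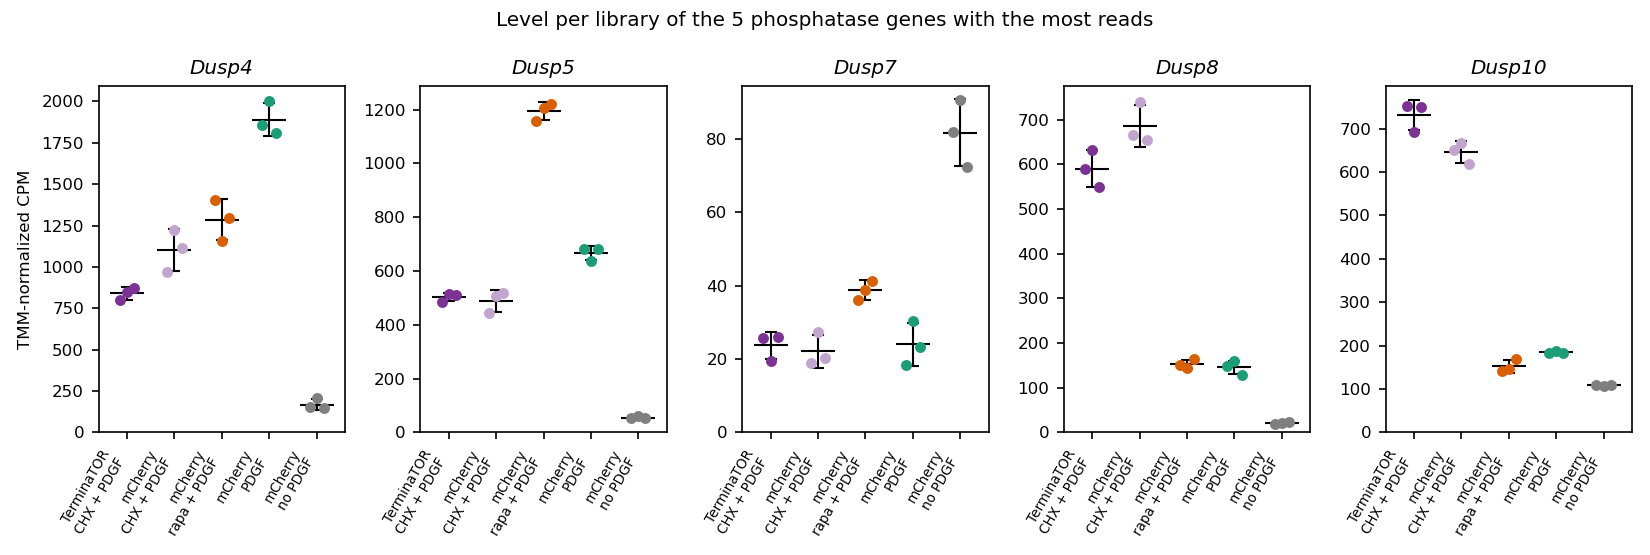
TMM-normalized CPM per library of the 5 genes with the most reads; points are libraries, the long line is the group mean and the bar ± SD (n = 3; CHX, cycloheximide; rapa, rapamycin). *Dusp5* is highest with rapamycin and PDGF, *Dusp7* without PDGF, and *Dusp8* and *Dusp10* in both groups with cycloheximide.

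*Dusp1* (chromosome 17, 26505590 to 26562128, minus strand) encodes a nuclear phosphatase of all 3 MAPK families, and the gene span in the annotation includes long alternative transcripts. It had 97, 103 and 67 reads in TerminaTOR cells, 82, 62 and 104 in mCherry cells with cycloheximide and PDGF, 6, 0 and 3 with rapamycin and PDGF, 16, 13 and 17 with PDGF, and 19, 28 and 11 without PDGF. As levels these were 18.6 ± 3.00, 17.5 ± 2.23, 0.795 ± 0.839, 3.76 ± 0.563 and 3.87 ± 2.06 CPM (SD, n = 3), in the same order. The groups with PDGF and without it overlapped, and *Dusp1* was not called between them (log2 change -0.02 ± 0.37, edgeR adjusted p = 0.973). Over PDGF alone it rose 4.67-fold with cycloheximide (log2 change 2.22 ± 0.31, edgeR adjusted p = 7.57e-09) and was 4.48-fold lower with rapamycin (log2 change -2.16 ± 0.52, edgeR adjusted p = 0.000625). The rapamycin change was -3.13 without replicate 1 of the rapamycin group, which held 6 of its reads, and -3.37 for transcripts tested as deposited. The 46 bases specific to the coding transcript *Dusp1*-202 held 23, 21, 0, 3 and 4 reads by group, the same order as the intron-retaining *Dusp1*-203 with 136, 121, 2, 26 and 31. The overlapping gene *Ergic1*, on the opposite strand, had 29, 28, 37, 53 and 240 reads.

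*Dusp2* (chromosome 2, 127336159 to 127338376, plus strand), a nuclear phosphatase best known from lymphocytes, was near the detection limit. It had 7, 3 and 5 reads in TerminaTOR cells, 7, 0 and 6 in mCherry cells with cycloheximide and PDGF, none in 3 libraries with rapamycin and PDGF, 1, 0 and 4 with PDGF, and none in 3 libraries without PDGF. Against a floor of 3 counts over a group, it was at least 4.78-fold higher with cycloheximide and PDGF than without PDGF, a limit that ran from 3.07 to 6.66 with any 1 library left out, a check chosen after seeing the data. With PDGF it was at least 2.09-fold higher than without PDGF, but 4 of the 5 reads lay in replicate 3, and the 1 read left without it is under the floor and gives no limit. The floor covers counting error in the group without reads only. The reads of the other group are taken as counted, so their own counting error is left out.

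**Figure D4:**
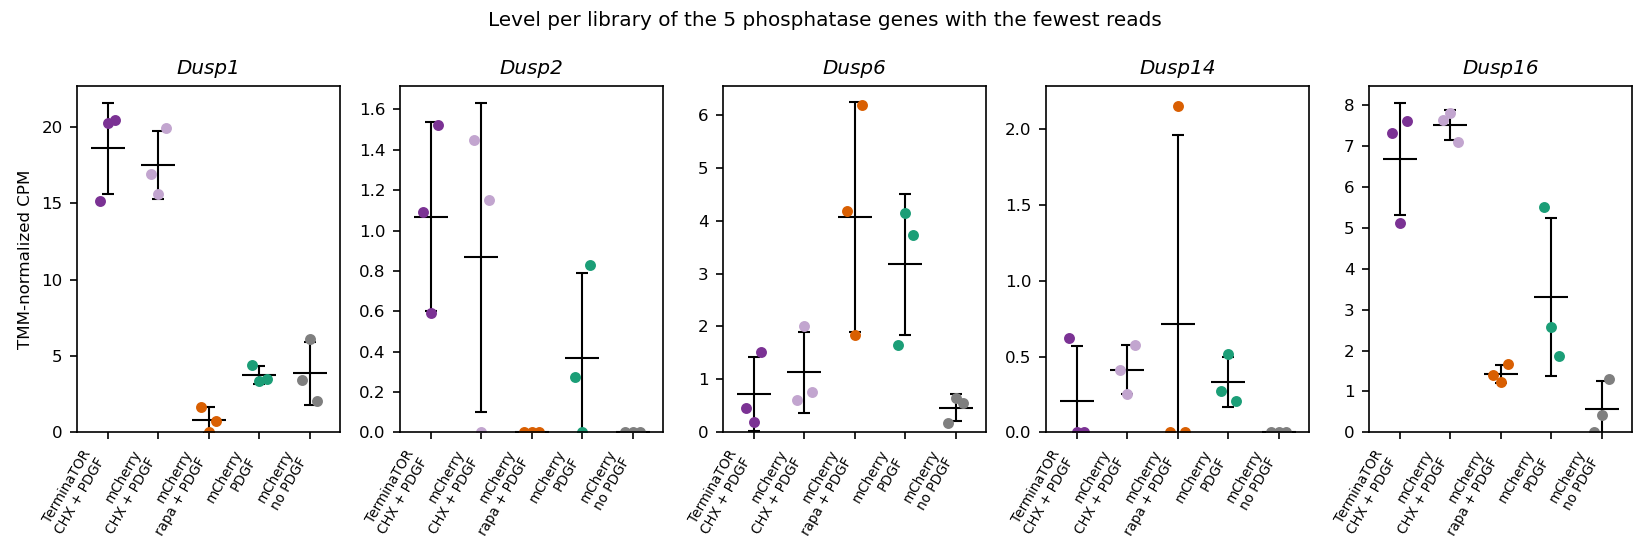
TMM-normalized CPM per library of the 5 genes with the fewest reads; points are libraries, the long line is the group mean and the bar ± SD, cut at 0 (n = 3; CHX, cycloheximide; rapa, rapamycin). *Dusp1* and *Dusp16* are highest in both groups with cycloheximide, and 1 of 3 rapamycin libraries holds all 7 reads of *Dusp14* in that group.

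The cytoplasmic phosphatases selective for ERK were *Dusp7* and *Dusp6*. *Dusp7* (chromosome 9, 106368632 to 106375724, plus strand) had 25.6, 19.5 and 25.9 CPM in TerminaTOR cells, 18.8, 27.2 and 20.4 CPM in mCherry cells with cycloheximide and PDGF, 35.9, 38.8 and 41.3 CPM with rapamycin and PDGF, 18.5, 30.2 and 23.2 CPM with PDGF, and 81.9, 90.5 and 72.4 CPM without PDGF. It was the only tested member that PDGF lowered, with every library without PDGF above all others (log2 change -1.76 ± 0.15, edgeR adjusted p = 1.11e-16). Over PDGF alone it was 1.61-fold higher with rapamycin (log2 change 0.69 ± 0.16, edgeR adjusted p = 0.000356), still 2.10-fold below no PDGF, and with cycloheximide it was not called (log2 change -0.13 ± 0.17, edgeR adjusted p = 0.581).

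*Dusp6* (chromosome 10, 99263231 to 99267489, plus strand), a classic feedback gene of ERK, was seen through its processed transcripts only. It had 3, 1 and 5 reads in TerminaTOR cells, 3, 8 and 4 in mCherry cells with cycloheximide and PDGF, 15, 6 and 26 with rapamycin and PDGF, 6, 16 and 18 with PDGF, and 1, 3 and 3 without PDGF. The libraries with PDGF lay above those without it (log2 change 2.74 ± 0.72, edgeR adjusted p = 0.00138). With rapamycin it was not called (0.37 ± 0.56, edgeR adjusted p = 0.670). With cycloheximide it was lower than with PDGF alone (-1.53 ± 0.64, edgeR adjusted p = 0.0497), but the groups overlapped. That call was lost in 9 of 15 alternatives, among them leaving out replicate 2 or 3 with PDGF (edgeR adjusted p = 0.159 and 0.143) or replicate 1 or 3 with cycloheximide (edgeR adjusted p = 0.177 and 0.161), and the adjusted p ranged from 0.0223 to 0.177. Without replicate 2 with cycloheximide the log2 change was -2.16.

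The phosphatases of JNK and p38 shared a high level under cycloheximide. *Dusp8* (chromosome 7, 142079490 to 142095843, minus strand) had 588, 632 and 549 CPM in TerminaTOR cells, 665, 739 and 654 CPM in mCherry cells with cycloheximide and PDGF, 150, 143 and 163 CPM with rapamycin and PDGF, 148, 159 and 129 CPM with PDGF, and 18.2, 21.4 and 22.3 CPM without PDGF. The groups with rapamycin and with PDGF alone overlapped, and the others stood apart from these and from each other. The log2 change with PDGF was 2.82 ± 0.10 (edgeR adjusted p = 6.65e-38), and cycloheximide added 2.24 ± 0.07 over PDGF alone (edgeR adjusted p = 3.38e-38). With cycloheximide and PDGF it was 33.3-fold higher than without PDGF (edgeR adjusted p = 6.67e-55). With rapamycin it was not called (0.07 ± 0.08, edgeR adjusted p = 0.530). Gm32786, on the opposite strand, had 36, 33, 6, 8 and 0 reads.

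*Dusp10* (chromosome 1, 184013302 to 184075636, plus strand), a phosphatase of JNK and p38, had 751, 692 and 751 CPM in TerminaTOR cells, 652, 667 and 619 CPM in mCherry cells with cycloheximide and PDGF, 142, 145 and 168 CPM with rapamycin and PDGF, 183, 187 and 184 CPM with PDGF, and 110, 107 and 109 CPM without PDGF. No groups overlapped. The log2 change was 0.76 ± 0.07 with PDGF (edgeR adjusted p = 5.69e-15), 1.81 ± 0.07 with cycloheximide over PDGF alone (edgeR adjusted p = 9.46e-36) and -0.27 ± 0.07 with rapamycin (edgeR adjusted p = 0.00127). With rapamycin and PDGF it was 1.40-fold above no PDGF (edgeR adjusted p = 2.17e-08), a call lost when libraries were scaled by their totals (edgeR adjusted p = 0.193). The gene 1700056E22Rik, on the opposite strand, had 20, 20, 1, 5 and 2 reads.

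*Dusp16* (chromosome 6, 134715468 to 134792625, minus strand), which prefers JNK, had 47, 26 and 25 reads in TerminaTOR cells, 37, 31 and 37 in mCherry cells with cycloheximide and PDGF, 5, 4 and 7 with rapamycin and PDGF, 20, 10 and 9 with PDGF, and 0, 2 and 7 without PDGF. It rose with PDGF (log2 change 2.42 ± 0.58, edgeR adjusted p = 0.000483; 1.82 and 3.83 without replicate 1 and without replicate 3 of the group without PDGF) and with cycloheximide over PDGF alone (1.21 ± 0.41, edgeR adjusted p = 0.0142). The cycloheximide call was lost without replicate 2 or 3 of the PDGF group (edgeR adjusted p = 0.0631 and 0.127), for transcripts tested as deposited (edgeR adjusted p = 0.0612) and with protein-coding transcripts only (edgeR adjusted p = 0.0866), and its adjusted p over 16 alternatives ran from 0.00296 to 0.127. With rapamycin it was not called (-1.15 ± 0.53, edgeR adjusted p = 0.0922), although the groups did not overlap. Without replicate 3 of the PDGF group it passed (-1.46, edgeR adjusted p = 0.0448), and without replicate 1, which held 20 of the reads with PDGF, the log2 change was -0.60 (edgeR adjusted p = 0.501). Gm36328, antisense to it, had 27, 21, 8, 17 and 2 reads.

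*Dusp14* (chromosome 11, 84048041 to 84069261, minus strand), an atypical phosphatase without the kinase-binding domain, had 4, 0 and 0 reads in TerminaTOR cells, 2, 1 and 3 in mCherry cells with cycloheximide and PDGF, 0, 7 and 0 with rapamycin and PDGF, 1, 2 and 1 with PDGF, and none without PDGF. Against the floor it was at least 2.204-fold higher with cycloheximide and PDGF, at least 3.26-fold with rapamycin and PDGF and at least 1.67-fold with PDGF than without PDGF. These limits too leave out the counting error of the few reads in the groups with PDGF. The rapamycin value rests on replicate 2 alone. No limit was left for cycloheximide without replicate 3 of that group, or for PDGF without any 1 of its replicates.

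In all, cycloheximide with PDGF had 4 of 8 members higher and 3 lower than PDGF alone, where 21% of genes were higher and 19.6% lower. The members' median log2 change was 0.54, against 0.01 over all genes. The 4 that rose were *Dusp1*, *Dusp8*, *Dusp10* and *Dusp16*, while *Dusp4*, *Dusp5* and *Dusp6* fell. The calls for *Dusp16* and *Dusp6* were lost in 4 of 16 and 9 of 15 alternatives. With rapamycin 2 members were higher and 3 lower than with PDGF alone, where 16.3% of genes were higher and 16.1% lower, and the median was -0.10, against 0.02 over all genes. Against no PDGF, rapamycin with PDGF had 5 members higher and 2 lower (27.8% and 25.5% of genes), with a median of 2.08, and cycloheximide with PDGF had 6 higher and 1 lower (24.6% and 22.8% of genes), with a median of 2.65. The medians over all genes were 0.02 with rapamycin and -0.01 with cycloheximide. In all these counts and medians *Dusp6* and *Dusp16* were tested only because of their reads in libraries with PDGF. Scaling by library totals cut the share of called genes that were higher to 39% with cycloheximide (51.8% with TMM) and to 35.7% with rapamycin (50.3%). Against no PDGF it cut them to 26.8% with cycloheximide (51.9%) and 31.6% with rapamycin (52.1%).

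The TerminaTOR comparison set cells with the inhibitor of nuclear mTORC1 against mCherry cells on a background of blocked translation and PDGF. The groups are different stable lines, so the inhibitor and other differences between the lines cannot be told apart. *Dusp8* alone was called, 1.16-fold lower in TerminaTOR cells (log2 change -0.22 ± 0.07, edgeR adjusted p = 0.0453), so that 0 of 8 members were higher and 1 lower, where 2.35% of genes were higher and 2.57% lower. At an unadjusted p under 0.05, *Dusp10* was higher and *Dusp4* and *Dusp8* were lower, where 7.9% of genes were higher and 8.5% lower at that threshold. The log2 change of *Dusp4* was -0.39 ± 0.12 (edgeR adjusted p = 0.116) and that of *Dusp10* 0.18 ± 0.06 (edgeR adjusted p = 0.0812), and in all 3 genes the groups did not overlap. Of all genes tested, 12% lay higher and 11.7% lower in TerminaTOR cells without overlap. The other 5 members overlapped between the groups, with log2 changes from -0.76 ± 0.78 for *Dusp6* to 0.10 ± 0.16 for *Dusp7*. The members' median was -0.07 and that of all genes 0.00.

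These small changes depended on the setting. The call for *Dusp8* was lost in 11 of 16 alternatives, with an adjusted p from 0.00727 to 0.302, among them leaving out any replicate of the mCherry group (edgeR adjusted p = 0.0701, 0.300 and 0.0610 without replicates 1, 2 and 3) or replicate 1 or 3 of the TerminaTOR group (edgeR adjusted p = 0.121 and 0.302). *Dusp4* passed in 5 of 16 alternatives, among them without replicate 1 of the mCherry group (edgeR adjusted p = 0.04997). Without robust estimation, with the compared groups alone and with no filter its edgeR adjusted p was 0.00128, 0.000749 and 3.20e-06. *Dusp10* passed in 3 of 16, such as by DESeq2 (adjusted p = 0.0496). Over the alternatives the adjusted p ranged from 3.20e-06 to 0.277 for *Dusp4* and from 0.0156 to 0.340 for *Dusp10*. DESeq2 called *Dusp10* higher and *Dusp4* lower (adjusted p = 0.0498), and not *Dusp8* (adjusted p = 0.0693). Library-total scaling moved the share of called genes that were higher to 60.5% (47.7% with TMM).

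**Figure D5:**
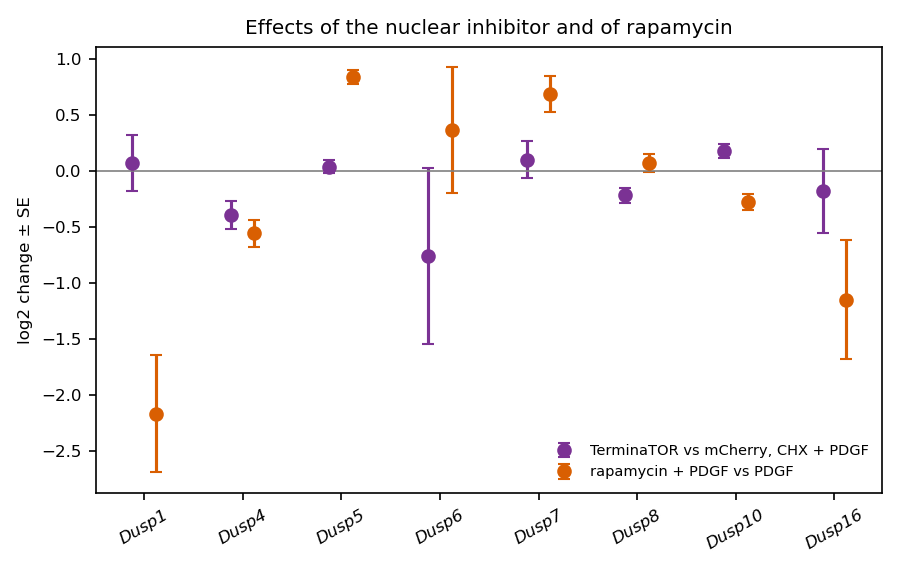
Log2 change ± SE of the 8 members tested, for TerminaTOR against mCherry cells (CHX, cycloheximide) and for rapamycin with PDGF against PDGF. *Dusp1*, *Dusp5*, *Dusp8* and *Dusp10* differed between the comparisons by the test of the difference.

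The TerminaTOR effect was compared with the rapamycin effect by a test of their difference. They share no library, but only the TerminaTOR comparison had cycloheximide and set different lines against each other. The inhibitor, its background and the line therefore cannot be told apart. The TerminaTOR effect was higher than the rapamycin effect for *Dusp1* (difference in log2 change 2.23 ± 0.59, edgeR adjusted p = 0.00230) and *Dusp10* (0.45 ± 0.09, edgeR adjusted p = 9.17e-05), and lower for *Dusp5* (-0.80 ± 0.08, edgeR adjusted p = 2.87e-12) and *Dusp8* (-0.29 ± 0.10, edgeR adjusted p = 0.0318). Thus 2 of 8 members were higher and 2 lower, where 12.4% of genes were higher and 11.6% lower, with a median of -0.06 for the members and -0.01 for all genes. *Dusp5* rose with rapamycin and had a log2 change of 0.04 ± 0.06 between TerminaTOR and mCherry cells. *Dusp4* was lower in both comparisons (-0.39 in TerminaTOR cells, not called, and -0.55 with rapamycin), and the difference was not called (0.16 ± 0.17, edgeR adjusted p = 0.578). The difference for *Dusp1* ran from 1.72 to 3.196 with a replicate left out, and was 3.196 without replicate 1 of the rapamycin group. The difference for *Dusp7* was -0.59 ± 0.23 (edgeR adjusted p = 0.0530), and it passed in 7 of 22 alternatives, with an adjusted p from 0.0121 to 0.215, among them without replicate 2 of the PDGF group (edgeR adjusted p = 0.0121), replicate 1 of the rapamycin group (0.0403) or of the mCherry group with cycloheximide (0.0296), or replicate 1 or 3 of the TerminaTOR group (0.0408 and 0.0484). The call for *Dusp8* was lost in 8 of 22 alternatives, among them without replicate 3 of the PDGF, rapamycin or TerminaTOR group (edgeR adjusted p = 0.192, 0.108 and 0.115) or replicate 2 of the mCherry group with cycloheximide (edgeR adjusted p = 0.123). Library-total scaling moved the share of called genes that were higher to 68.1% (51.8% with TMM).

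Levels of different members can be set side by side only per length, and were taken as CPM per kilobase of transcript-specific sequence for the 5 genes with the most reads. In TerminaTOR cells the order was *Dusp4* (306 ± 14.0), *Dusp10* (285 ± 13.2), *Dusp5* (261 ± 7.71), *Dusp8* (147 ± 10.3) and *Dusp7* (14.1 ± 2.17), with the ranges of mean ± SD of *Dusp4* and *Dusp10* overlapping. In mCherry cells with cycloheximide and PDGF it was *Dusp4* (402 ± 47.1), *Dusp5* (254 ± 21.4), *Dusp10* (251 ± 9.67), *Dusp8* (171 ± 11.5) and *Dusp7* (13.2 ± 2.66), with those of *Dusp5* and *Dusp10* overlapping. With rapamycin and PDGF *Dusp5* led (621 ± 17.4), before *Dusp4* (469 ± 44.8), *Dusp10* (59.2 ± 5.49), *Dusp8* (37.9 ± 2.57) and *Dusp7* (23 ± 1.60). *Dusp5* lay above *Dusp4* in this group alone, and only per length (1195 CPM for *Dusp5* and 1286 CPM for *Dusp4*). Bases shared with a gene on either strand were left out, as if strand was not used in counting. That left 1926 of 2473 bases for *Dusp5* and all 2740 for *Dusp4*. If strand was used, the value of *Dusp5* per length is too high in every group. With PDGF the levels were 690 ± 36.1 for *Dusp4*, 346 ± 14.1 for *Dusp5*, 71.7 ± 0.817 for *Dusp10*, 36.2 ± 3.75 for *Dusp8* and 14.2 ± 3.52 for *Dusp7*. Without PDGF they were 61.2 ± 12.05 for *Dusp4*, 48.5 ± 5.40 for *Dusp7*, 42.4 ± 0.514 for *Dusp10*, 28.7 ± 1.90 for *Dusp5* and 5.13 ± 0.535 for *Dusp8*, and the ranges of *Dusp4* and *Dusp7* overlapped.

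The patterns over the 5 group means were most alike for *Dusp10* and *Dusp16*, with a root mean square difference of 0.39 on the log2 scale after centring, and for *Dusp4* and *Dusp5* (0.55). *Dusp7* and *Dusp8* were the least alike (2.47). Among 7767 other genes, the closest patterns were *Tob1* (0.08) and *Zfp248* (0.16) for *Dusp1*, *Hspa5* (0.21) and *Nfil3* (0.29) for *Dusp4*, *Rnd1* (0.28) and *Arid5a* (0.29) for *Dusp5*, and *Dzip1* (0.08) and *Akap8* (0.16) for *Dusp7*. For *Dusp8* they were *Rhob* and *Flrt3* (both 0.35), for *Dusp10* *Fbxo33* (0.05) and *Usp38* (0.07), and for *Dusp16* *Vwce* (0.20) and *Idi1* (0.21). *Tob1*, for example, averaged 552 CPM in TerminaTOR cells, 577 CPM in mCherry cells with cycloheximide and PDGF, 31.1 CPM with rapamycin and PDGF, 118 CPM with PDGF and 112 CPM without PDGF. *Hspa5* averaged only 9.22, 12.3, 10.9, 20.2 and 1.95 CPM in the same order, and *Zfp248* 0.879 CPM with rapamycin and PDGF. Counts of these genes also rest on transcript-specific bases, which were not looked up for them. Their patterns may therefore not be those of their main messenger RNA. The libraries are shared, and likeness of 5 means is a description.

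The other genes around the MAPKs were read from lists of their own. Of all genes tested, 20.1% were higher and 16.9% lower with PDGF. Over PDGF alone, 16.3% were higher and 16.1% lower with rapamycin, and 21% higher and 19.6% lower with cycloheximide. At these shares a few calls are expected in each list below. The counts of these genes too rest on transcript-specific bases, which were not looked up for them. Of 16 other dual-specificity phosphatases 7 were tested, and with PDGF 2 were higher and 0 lower (median 0.22), namely *Styx*, a pseudophosphatase (1.69-fold, edgeR adjusted p = 0.00627), and *Dusp11*, which acts on RNA (1.17-fold, edgeR adjusted p = 0.00137). With cycloheximide 3 of the 7 were lower than with PDGF alone and 0 higher (median -0.35), *Styx* 3.55-fold and *Dusp11* 1.28-fold. With rapamycin 2 were higher and 1 lower, *Dusp18* being 2.47-fold higher, from a low 3.15 ± 1.62 CPM (SD) with PDGF. Of 8 other MAPK phosphatases 5 were tested, and 4 were higher and 1 lower with PDGF (median 0.47), with *Ppm1b*, a metal-dependent phosphatase, 1.87-fold higher. With cycloheximide 4 of the 5 were higher and 0 lower than with PDGF alone, and *Ppm1d*, a phosphatase of p53 and p38 signalling, was 1.91-fold higher.

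Of 17 genes of the ERK cascade 11 were tested. With PDGF 7 were higher and 0 lower (20.1% and 16.9% of all genes; median 0.23), with the kinase gene *Rps6ka3* 2.00-fold higher. With rapamycin 3 were higher and 1 lower, and with cycloheximide 2 higher and 4 lower, than with PDGF alone. In the JNK cascade 1 of 6 tested genes was higher and 1 lower with PDGF, in the p38 cascade 1 of 5 higher and 1 lower. *Map2k4*, a kinase of JNK, was 1.40-fold higher, and *Tab1*, an activator in the p38 branch, was 2.49-fold lower with PDGF. With rapamycin 1 gene of each of these cascades was higher and 1 lower than with PDGF alone. *Map2k3*, a kinase of p38, was 4.45-fold higher, from a low 2.74 ± 1.79 CPM (SD) with PDGF, and *Map2k4* 1.68-fold higher. With cycloheximide 3 of the 6 JNK genes were higher and 1 lower, and 1 of the 5 p38 genes higher and 1 lower, with *Mapk8*, which encodes JNK1, 1.63-fold higher. Of 8 output genes of ERK 6 were tested, with 5 higher and 0 lower with PDGF (median 3.29), led by *Phlda1* (24.4-fold) and the feedback inhibitor *Spry4* (23.3-fold). With rapamycin 3 were higher and 2 lower than with PDGF alone, *Spry2*, a feedback inhibitor, 1.74-fold higher and *Spry4* 1.73-fold lower. Between TerminaTOR and mCherry cells 2 of the 6 output genes were lower, *Phlda1* 1.66-fold and *Spry2* 1.34-fold (edgeR adjusted p = 2.22e-11 and 4.04e-07). None of the tested genes of the ERK, JNK and p38 cascades (11, 6 and 5), or of the other phosphatases (7 and 5), was called there. Of all genes tested 4.92% were called in that comparison, so few calls are expected in lists of this size.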

How the data were processed

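Messenger RNA of 15 libraries was sequenced after oligo-dT capture, per the labels' protocols. The authors deposited whole-number read counts per transcript, not normalized; alignment and counting tools in the submitters' processing notes are HISAT2 2.2.1 and HTSeq 0.9.1, with R 4.1.0. The notes also name hg38, a human assembly, while the identifiers are those of mouse; the sources used here do not give the mouse build. Of 142446 transcripts, 141536 matched GENCODE M21 (GRCm38), and the 910 unmatched, with 0.0309% of counts, were dropped before summing by gene. Tests used edgeR 4.0.16 in R 4.3.3: filterByExpr (10603 genes), TMM scaling, all 15 libraries in a common fit with 10 residual degrees of freedom, the robust quasi-likelihood F test, and Benjamini-Hochberg adjustment over all genes tested. CPM are relative to TMM-scaled totals. The SE is the absolute log2 change over the square root of F and is approximate. The members, the gene lists and the tests were chosen with earlier results of these data known. The text names all 10 members, up to 2 called genes per list and comparison with mean log2 CPM no lower than 1, and the 2 most alike genes per member with a mean of at least 10 reads; 1 gene that this rule names is not reported here. The alternatives were DESeq2 1.42.0, other scalings and filters, the compared groups alone, transcripts as deposited, a replicate block and each replicate left out. No clear pairing of the samples by replicate number was seen.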

Additional observations from a re-analysis of the deposited data

How the results depend on the processing

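Of the members' log2 changes under the alternatives, 867 kept direction and side of the threshold, 33 lost a call, 17 gained one and 11, none of them called, changed sign. Those were *Dusp1* with PDGF (0.0149 for transcripts as deposited, and -0.34 to 0.43 with a replicate left out), *Dusp6* with rapamycin (-0.0741 to 0.70 with a replicate left out), *Dusp8* with rapamycin (-0.0559 with library-size scaling, and -0.0113 to 0.14 with a replicate left out), *Dusp7* with cycloheximide (-0.29 to 0.0629), and, between TerminaTOR and mCherry cells, *Dusp1* (-0.00262 to 0.20) and *Dusp5* (-0.0280 to 0.0861), these 3 also with a replicate left out. Members higher in TerminaTOR cells numbered 1 with DESeq2, library-size scaling or the compared groups alone (0 in the report). Members lower there numbered 0 with DESeq2 size factors, library-size scaling or transcripts as deposited, 2 with the compared groups alone, and 0 to 1 with a replicate left out. All genes called there numbered 522, and 309 to 361 with a replicate left out. For the difference of effects, members lower numbered 1 with DESeq2, library-size scaling, no filter or transcripts as deposited (2 in the report), and 1 to 3 with a replicate left out. Protein-coding transcripts only, an alternative chosen like the fit without robust estimation after seeing the data, left 2 members higher with cycloheximide (4 in the report), 1 lower with rapamycin against no PDGF (2) and 1 higher for the difference of effects (2). *Dusp1* and *Dusp6* could then not be tested, and *Dusp16* lost its cycloheximide call. Members higher with PDGF then numbered 5 (6 in the report), and members lower with rapamycin than with PDGF alone 2 (3). The cause of the other moves was not tested.

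Same-numbered libraries had correlations of deviations from -0.04 to 0.08, with a median of 0.00783 against -0.00337 for libraries of different numbers. Of 15 libraries, 8 correlated best with their own number. No clear pairing by number was thus seen, which does not exclude a weak one. With the replicate number as a block, 563 genes were called between TerminaTOR and mCherry cells, the members higher and lower numbered 6 and 1 with PDGF, *Dusp6* lost its cycloheximide call (adjusted p = 0.0629) and *Dusp7* gained one for the difference of effects. Low counts limit *Dusp1*, *Dusp2*, *Dusp6*, *Dusp14* and *Dusp16*.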
